A study of Mus musculus with 7 samples.

Results

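The mouse genes Cdk8, Cmss1, Camk1d, Gphn, Il31ra, Spata5, Tmem56, Kcnip1 and Peak1 (9 genes) carried dense runs of DENR crosslink sites inside their introns. They were examined in iCLIP libraries from NIH3T3 cells, an established mouse fibroblast line. The members were chosen because many intronic positions listed in all 5 DENR libraries fell into single short stretches of each gene. The number, crowding and intronic place of such positions are therefore a description and not a finding. Every site inside the gene body and on the strand of the gene was taken, with gene models from GENCODE release M21 on mouse build mm10. This gave 4605 of the 42120 sites in the 7 lists.

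The libraries were of 3 kinds. In the DENR overexpressing group (n = 3), cells carried a transiently transfected Denr construct with a FLAG-Venus tag and DENR was immunoprecipitated with an anti-DENR antibody. In the non-transfected group (n = 2), the same antibody recovered the endogenous protein, and in the IgG group (n = 2) control immunoglobulin took the place of the antibody. The methods give 1 dish of cells for an overexpressing sample and 6 for a non-transfected one, so the amount of starting material and the expression of DENR cannot be told apart. All groups came from the same cell line under ultraviolet crosslinking, and transfected cells hold the endogenous protein beside the tagged one. The labels do not say whether replicates came from separate cultures, so the spread between them may be technical.

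DENR works with its partner MCTS1 on the small ribosomal subunit, where the pair acts in translation reinitiation after a short upstream open reading frame. Introns are removed from the transcript in the nucleus and are not normally part of the mRNA that ribosomes read. In iCLIP, a covalent bond forms where a protein touches RNA, and the nucleotide at which reverse transcription stops is recorded. Each listed site has a score, the height that the peak caller gave it, and only sites past the caller's threshold are listed. Scores were not scaled to library size, so they are compared between libraries as shares of a list or of a gene.

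The annotation held a transcript sequence at Peak1 only. In the last intron of Peak1, the predicted microRNA gene Gm24270 (mm10, chr9:56223715-56223771, minus strand) lay between the Peak1 site groups, and 5 other predicted microRNA genes matched its 57-nt transcript at an e-value under 1e-05. Bases 2 to 31 of the 6 transcripts are shown because 3 of the copies had sites at base 31 and Gm24270 did not, with capitals marking the bases that differ from Gm24270.
Gm24270: gtcgggaccggggtccggtgcggagagccg
Gm23935: gtcgggaccggggtccggtgcggagagccg
Gm24245: gtcgggaccggggtccggtgcggagagccg
Gm24187: gtcgggaccAgggtccggtgcggagagccg
Gm25911: gtcgggaccgggAtccggtgcggagagccg
Gm23388: TtcgggaccggggtGcggtTcggagagccg
With base 1 the first of the Gm24270 transcript at its 5′ end, Gm24187 differed within the printed bases by G11A, Gm25911 by G14A, and Gm23388 by G2T, C16G and G21T. Differences outside bases 2 to 31 are not shown, and the transcript of Gm25911 is 56 nt long.

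The 9 genes held a large part of each list. They took 17.4%, 7.78% and 10.4% of the sites in the DENR overexpressing libraries and 14.1% and 12.8% in the non-transfected libraries. Weighted by score, the shares were 25.8%, 20.2% and 21.3% against 23.8% and 20.7%. The libraries with the longer lists, DENR overexpressing replicates 2 and 3 with 16137 and 10209 sites, had the lowest shares of sites, whereas the shares of score lay closer together. Over the 5 DENR libraries the share was 12.5% ± 3.64 of sites (SD, n = 5) and 22.4% ± 2.40 of score (SD, n = 5). These shares of sites count single nucleotides, many of them adjacent. With sites within 15 nt merged, the shares were 4.48%, 0.460% and 0.837% in overexpressing and 2.86% and 1.99% in non-transfected libraries.

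DENR overexpression was compared with the endogenous protein on these shares. The mean share of sites was 11.9% ± 4.97 (SD, n = 3) in overexpressing cells and 13.4% ± 0.898 (SD, n = 2) in non-transfected cells, a difference of -1.56 percentage points (two-sided exact permutation test, p = 0.8). The share of score was 22.4% ± 3.01 (SD, n = 3) and 22.2% ± 2.19 (SD, n = 2), a difference of 0.200 percentage points (two-sided exact permutation test, p = 1). Neither difference exceeded the SD over the 5 DENR libraries, which was 3.64 for sites and 2.40 for score. The difference in sites was larger than the SD of the 2 non-transfected libraries. The smallest p that 3 against 2 libraries can give is 0.2, so the design could not reach 0.05.

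**Figure D1:**
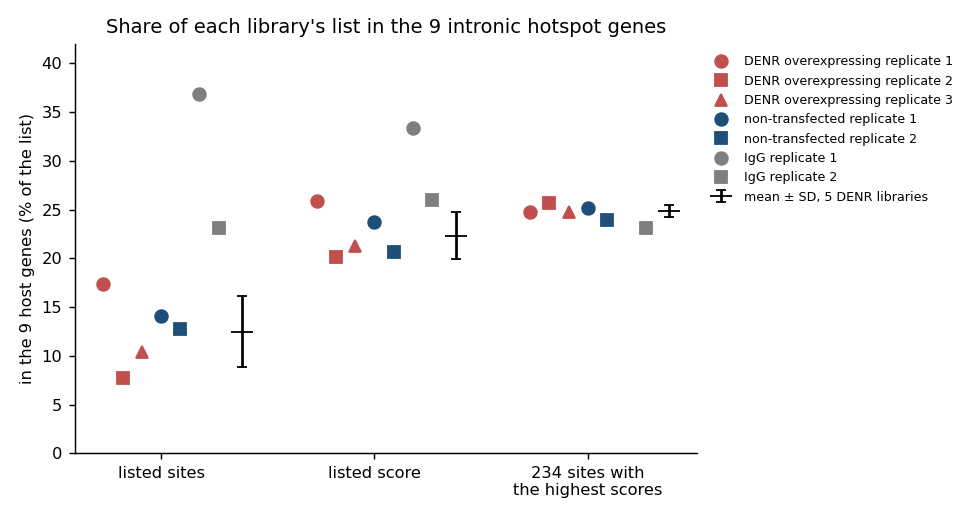
Percentage of the listed sites and of the listed score that fell in the 9 genes, for each of the 7 libraries, and the percentage of sites after each list was cut to its 234 highest scores. The 5 DENR libraries sat between 20.2% and 25.8% of score, and the DENR overexpressing and non-transfected libraries overlapped.

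The same genes were prominent in the control lists. IgG replicate 1 listed 19 sites, of which 7 (36.8%, Clopper-Pearson 95% interval 16.3 to 61.6) were in Cdk8 or Cmss1. IgG replicate 2 listed 234 sites, of which 54 (23.1%, interval 17.8 to 29.0) were in 7 of the 9 genes. These shares of sites lay above the DENR mean, and the intervals cover counting error only, since sites of a list are not independent. When each DENR list was cut to its 234 sites of highest score, a comparison chosen after seeing the data, the 9 genes took 24.8%, 25.6% and 24.8% in the overexpressing libraries and 25.2% and 23.9% in the non-transfected ones, against 23.1% in IgG replicate 2. At equal list length the control share lay below each of the 5 DENR shares, whose mean was 24.9% ± 0.634 (SD, n = 5). All 5 DENR shares lay inside the interval of the control share, and choosing the genes on DENR positions may raise the DENR shares. Nothing is read from this gap. What the presence of these positions in the control means for the DENR libraries was not tested.

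Control sites fell largely on positions that the DENR libraries shared, in the 9 genes and over the whole control lists. All 7 member sites of IgG replicate 1 were listed in all 5 DENR libraries, beside 17 of the 19 sites of that whole list. Of the 54 member sites of IgG replicate 2, 54 were in at least 1 DENR list and 49 in all 5. In the whole list of IgG replicate 2, these numbers were 209 and 183 of 234. Over the whole of that control list, 78.2% of sites were in all 5 DENR lists, and 0.898% of all positions in any DENR list were in that control list. By gene, the sites of IgG replicate 2 numbered 17 in Cdk8, 10 each in Cmss1 and Camk1d, 7 in Gphn, 4 each in Il31ra and Tmem56, 2 in Spata5, and 0 in Kcnip1 and Peak1. The genes without control sites were those with the lowest DENR scores. No floor can be given for the zeros, because only sites past the threshold are listed.

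Sites in the 9 genes had a higher mean score than sites elsewhere in the DENR lists. Choosing the genes on positions listed in all 5 DENR libraries may favour tall sites, so nothing is read from this difference. The mean score per site was 9.06, 25.0 and 18.7 in the overexpressing libraries and 6.43 and 15.4 in the non-transfected ones, against 5.47, 8.35, 8.06, 3.37 and 8.65 for sites elsewhere in the same libraries. The medians were closer, at 2, 4, 4, 2 and 4 in the 9 genes against 2 elsewhere in every DENR library. In IgG the mean scores were 1.00 and 2.09 in the 9 genes and 1.17 and 1.78 elsewhere. A few tall positions therefore carried much of the score, and between 249 and 302 of the member sites in each DENR library had a score of 1.

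All sites of the 9 genes were intronic, and their crowding in introns follows from how the genes were chosen. The densest stretch of each gene, in which DENR sites followed one another over gaps of at most 50 nt, measured 89 to 331 nt, and the 9 stretches together covered 1823 nt or 0.0847% of the summed gene length. They held 4241 of the 4544 DENR sites (93.3%), another 295 lay within 1000 nt of the stretch, and 8 lay farther away. Of the 1823 nt, 1346 were listed in at least 1 DENR library. No site overlapped an annotated exon of these genes, and in 4 genes the stretch lay in the first intron. Of the 1487 positions listed in the 9 gene bodies on either strand, 3 were on the opposite strand only (0.202%), against 408 of 9712 (4.20%) in other protein-coding gene bodies. Because the genes were chosen for many positions on their own strand, nothing is read from this difference. Those 3 positions were in Cmss1, where Filip1l runs on the other strand.

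Cdk8 and Cmss1 stood above the other members. Cdk8, the cyclin-dependent kinase of the Mediator complex, which links transcription factors to RNA polymerase II, runs on the plus strand of chromosome 5 from 146231230 to 146302874. Its stretch (mm10, chr5:146260988-146261318, 331 nt) lay in intron 2 of 12, 1001 nt from the nearest exon, and held all 977 DENR sites of the gene. The sites per library were 162, 231 and 220 in overexpressing and 145 and 219 in non-transfected cells, with summed scores of 1710, 10230, 5942, 1326 and 4122. Their share of the listed score was 6.99%, 6.57% and 6.35% against 8.07% and 6.03%, and the groups overlapped. IgG replicates 1 and 2 had 5 and 17 sites there, with scores of 5 and 35.

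Within the Cdk8 stretch, the signal was spread over its 3′ part. The position 146261268, at nt 281 of 331, had scores of 209, 675, 631, 237 and 180 in the DENR libraries and 3 in IgG replicate 2. It was the tallest site of the gene in 3 of 5 DENR libraries and made up 10.3% ± 5.25 of the gene's score (SD, n = 5), ranging from 4.37% to 17.9%. Position 146261239 had scores of 101, 978, 419, 71 and 374 and was higher than position 146261268 in DENR overexpressing replicate 2 and non-transfected replicate 2, so the leading position changed between replicates of the same group. The tallest 5 positions of a library held 34.9% ± 6.46 of the score of the stretch, the lowest mean of the 9 genes.

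Cmss1 encodes the homolog of a yeast protein associated with the small ribosomal subunit, and occupies chromosome 16 from 57302000 to 57606864 on the minus strand. Its stretch (mm10, chr16:57391455-57391685, 231 nt) was in the first of 9 introns, an intron of 283122 nt, and lay 52808 nt from the nearest exon. Of its nucleotides, 95.2% were listed in at least 1 DENR library, the highest coverage of the 9 genes. The sites numbered 159, 206 and 192 in overexpressing and 122 and 184 in non-transfected cells, with scores of 2398, 8551, 6383, 1289 and 4953. As shares of the listed score these were 9.80%, 5.49%, 6.82%, 7.85% and 7.25%, so the highest and the lowest share both came from overexpressing libraries.

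Cmss1 had a pair of dominant positions of similar height. Position 57391680, at nt 6 of the stretch, had scores of 396, 1131, 853, 218 and 724 and was among the 5 tallest sites of every DENR list, at ranks 3, 4, 5, 2 and 5. Position 57391605, at nt 81, had scores of 389, 1058, 1000, 181 and 865. They held 14.9% ± 1.72 and 15.2% ± 1.98 of the gene's score (SD, n = 5), and which of them was higher differed between libraries of each group. IgG replicate 2 listed both, each with a score of 2.

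Among the remaining genes linked to the ribosome or nucleus, Spata5 encodes an AAA-type ATPase and lies on the plus strand of chromosome 3 from 37419896 to 37579096. Its stretch (mm10, chr3:37481475-37481646, 172 nt) was in intron 14 of 15 and held 299 of 410 DENR sites (72.9%), the lowest share of the 9 genes. A group of 69 sites at 37481704 to 37481754 and another of 42 sites at 37481353 to 37481382 flanked it. The gene had 48, 129, 106, 62 and 65 sites in the DENR libraries, with scores of 202, 1213, 950, 217 and 353. Position 37481566 was the tallest of the gene in all 5 DENR libraries with scores of 60, 280, 183, 39 and 109, or 24.2% ± 5.90 of the gene's score (SD, n = 5).

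The signalling genes differed in how much of their score lay on 1 position. Camk1d, a kinase activated by calcium and calmodulin, lies on the minus strand of chromosome 2 from 5293457 to 5714515, with its stretch (mm10, chr2:5379100-5379380, 281 nt) in intron 3 of 10. It had 64, 146, 110, 59 and 93 sites and scores of 470, 3912, 1786, 298 and 1382. Position 5379344 was the tallest of the gene in all 5 DENR libraries, with scores of 192, 1104, 715, 90 and 415, and held 33.9% ± 6.06 of the gene's score (SD, n = 5). It was also the tallest member site in a control list, with a score of 20 in IgG replicate 2, and Camk1d took 8.29% of the listed score there against 2.04% ± 0.277 in the DENR libraries (SD, n = 5). Of the 472 DENR sites, 8 lay at 5411824 to 5411825, outside any other group of sites, and position 5411824 was listed in all 5 DENR libraries.

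Il31ra encodes a subunit of the receptor for interleukin 31, and lies on the minus strand of chromosome 13 from 112519898 to 112594360. Its stretch (mm10, chr13:112578229-112578361, 133 nt) was in the first of 16 introns. The gene had 64, 118, 95, 56 and 80 sites and scores of 692, 2532, 1784, 306 and 1000. A single position, 112578309, had scores of 375, 1244, 848, 172 and 496, which made up 51.3% ± 3.68 of the gene's score (SD, n = 5) and placed it among the 9 tallest sites of every DENR list. No position of another member took so large a part of its gene, and the next position of Il31ra held 3.25% ± 2.09. A second group of 76 sites lay at 112578653 to 112578739.

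Peak1, a pseudokinase found at focal adhesions and the actin cytoskeleton, lies on the minus strand of chromosome 9 from 56201126 to 56418067. Its stretch (mm10, chr9:56223611-56223699, 89 nt) was the shortest of the 9 and lay in intron 6 of 6. The gene had 36, 72, 58, 31 and 57 sites with scores of 99, 536, 392, 47 and 380. Position 56223664 had scores of 9, 60, 47, 2 and 69, or 10.9% ± 5.03 of the gene's score (SD, n = 5). Its share was 10.8% ± 1.50 in overexpressing (SD, n = 3) and 11.2% ± 9.83 in non-transfected libraries (SD, n = 2), so the latter replicates lay farther apart than the groups. Neither IgG list had a site in the gene.

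The genes for membrane proteins and their partners followed. Gphn encodes gephyrin, the scaffold of glycine and GABA-A receptors and an enzyme of molybdenum cofactor synthesis, and lies on the plus strand of chromosome 12 from 78226379 to 78684772. Its stretch (mm10, chr12:78350865-78351159, 295 nt) was in intron 2 of 22 and held all 565 DENR sites. The gene had 78, 171, 136, 65 and 115 sites with scores of 494, 2828, 1631, 252 and 1545. Position 78351070 had scores of 67, 224, 163, 23 and 113 and its neighbour 78351066 had 43, 237, 147, 20 and 141, and the higher of them differed between libraries of each group. The 5 tallest positions held 36.8% ± 3.50 of the score of the stretch (SD, n = 5).

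Tmem56, a transmembrane protein with a TLC domain, lies on the minus strand of chromosome 3 from 121201761 to 121283098, and all 326 of its DENR sites were in the stretch (mm10, chr3:121249813-121249983, 171 nt) in the first of 7 introns. It had 48, 95, 86, 36 and 61 sites with scores of 172, 1099, 679, 97 and 246. Tmem56 was the only member whose share of the listed score did not overlap between the DENR groups, at 0.703%, 0.706% and 0.726% in overexpressing and 0.590% and 0.360% in non-transfected libraries. The means were 0.712% ± 0.0122 (SD, n = 3) and 0.475% ± 0.163 (SD, n = 2). Of the 33 protein-coding genes with a site in all 5 DENR lists, 3.03% were higher in every overexpressing library in this way and 6.06% were lower. The 33 genes include the 9 members, and Tmem56 was the 1 gene that was higher. By share of listed sites the groups overlapped in Tmem56, at 0.876% ± 0.305 (SD, n = 3) and 0.841% ± 0.0116 (SD, n = 2). Position 121249903 led the gene in 4 of 5 libraries with scores of 20, 233, 103, 13 and 65.

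Kcnip1, a calcium sensor that binds Kv4 potassium channels, lies on the minus strand of chromosome 11 from 33629339 to 33993152. Its stretch (mm10, chr11:33754801-33754920, 120 nt) was in the first of 7 introns, 88210 nt from the nearest exon, which was the largest such distance of the 9. The gene had 39, 87, 61, 32 and 45 sites with scores of 86, 517, 353, 75 and 152. Position 33754883 had scores of 7, 73, 47, 12 and 19, or 12.8% ± 2.92 of the gene's score (SD, n = 5). Position 33754823 had scores of 14, 33, 63, 2 and 8 and was above it in DENR overexpressing replicates 1 and 3. IgG listed no site in Kcnip1.

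**Figure D2:**
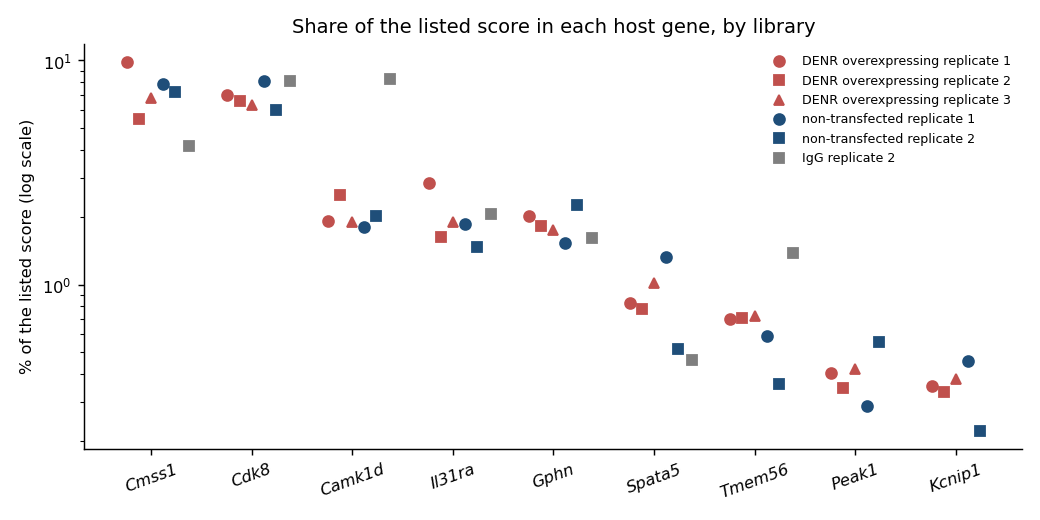
Percentage of the listed score of each library that fell in each of the 9 genes, on a log axis, with 1 point for each DENR library and for IgG replicate 2 where it had a site. Cmss1 and Cdk8 lie above the other genes and Peak1 and Kcnip1 at the bottom, and DENR overexpressing and non-transfected points overlap in every gene but Tmem56.

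The genes were ordered by their mean share of the listed score. Cmss1 (7.44% ± 1.58) and Cdk8 (6.80% ± 0.790) overlapped, Cmss1 being higher in 3 of 5 libraries. Camk1d (2.04% ± 0.277), Il31ra (1.94% ± 0.530) and Gphn (1.87% ± 0.277) came next, and each was higher than its follower in 3 of 5 libraries, save that Gphn was above Spata5 in all 5. Spata5 (0.891% ± 0.299), Tmem56 (0.617% ± 0.153), Peak1 (0.402% ± 0.101) and Kcnip1 (0.348% ± 0.0847) followed. Spata5 was above Tmem56 in all 5 libraries although their ranges overlapped, Tmem56 was above Peak1 in 4 of 5, and Peak1 above Kcnip1 in 4 of 5. All are mean ± SD over the 5 DENR libraries. The steps without overlap between neighbours in this order were those from Cdk8 to Camk1d and from Gphn to Spata5, and the ranges of all other neighbours overlapped.

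Positions were often the same nucleotide in different libraries. The 9 genes had 1484 positions in any DENR list, of which 397 (26.8%) were listed in all 5, beside 8.27% of all positions in the series. Because the genes were chosen on such positions, nothing is read from this difference. Positions in 1 list only made up 23.5% in the 9 genes and 68.3% elsewhere. By gene, the positions in all 5 lists numbered 112 of 272 in Cdk8 and 105 of 224 in Cmss1, followed by Gphn and Il31ra with 36 each, Camk1d with 33, Spata5 and Tmem56 with 22 each, Peak1 with 16 and Kcnip1 with 15. Cmss1 and Cdk8 thus had 46.9% and 41.2% of their positions in all 5 lists, whereas the other genes had 13.2% to 25.4%.

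**Figure D3:**
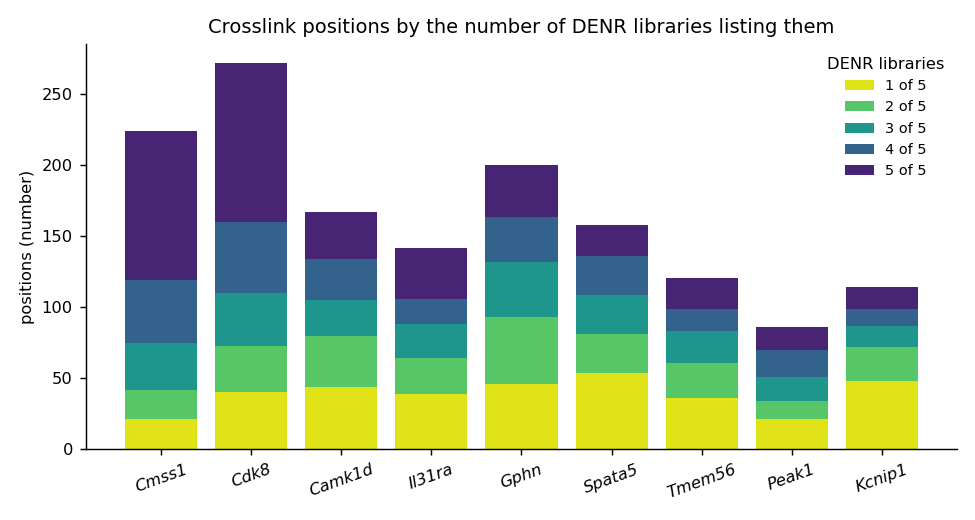
Number of positions in each of the 9 genes by how many of the 5 DENR lists held them. Positions in all 5 lists are the largest class in Cdk8 (112) and Cmss1 (105). Positions in 1 list are the largest class in Spata5 (54), Kcnip1 (48), Camk1d (44), Il31ra (39), Tmem56 (36) and Peak1 (21), and positions in 2 lists in Gphn (47).

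Of the 4075 protein-coding genes with a DENR position, 0.344% had at least 10 positions in all 5 lists, and all 9 members were among these 14 genes, as their choice on such positions requires. The remaining genes with most such positions were Lars2 with 77 (chr9:123461917-123462108), Kpna1 with 31 (chr16:35981579-35981624), Acvr2b with 11 (chr9:119427502-119427516) and Col6a6 with 10 (chr9:105819491-105819556). They spanned 192, 46, 15 and 66 nt. The lowest member, Kcnip1, had 15, and the gene just under 10 was Cd44 with 9. Of the 397 shared positions of the 9 genes, 53 (13.4%) were also in an IgG list, beside 9.16% of the shared positions elsewhere.

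The shape of the signal along each stretch recurred between libraries. Across the positions listed in both libraries of a pair, the mean Spearman's rho of the scores was 0.784 in Cdk8, 0.748 in Cmss1, 0.742 in Gphn and 0.707 in Camk1d over 10 pairs each. It was 0.647 in Spata5, 0.605 in Tmem56 and 0.594 in Il31ra over 10 pairs, 0.716 in Kcnip1 over the 6 pairs with at least 20 shared positions and 0.617 in Peak1 over 9. These are descriptions with no p, since neighbouring positions share reads and sequence. The score-weighted centre of the stretch varied by an SD of 1.59 nt in Il31ra, 2.98 nt in Tmem56 and 6.11 nt in Cdk8. In Camk1d the SD was 14.1 nt, and non-transfected replicates 1 and 2 stood at nt 88.1 and nt 49.1, on either side of the overexpressing libraries. The DENR overexpressing and non-transfected centres overlapped in all 9 genes.

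**Figure D4:**
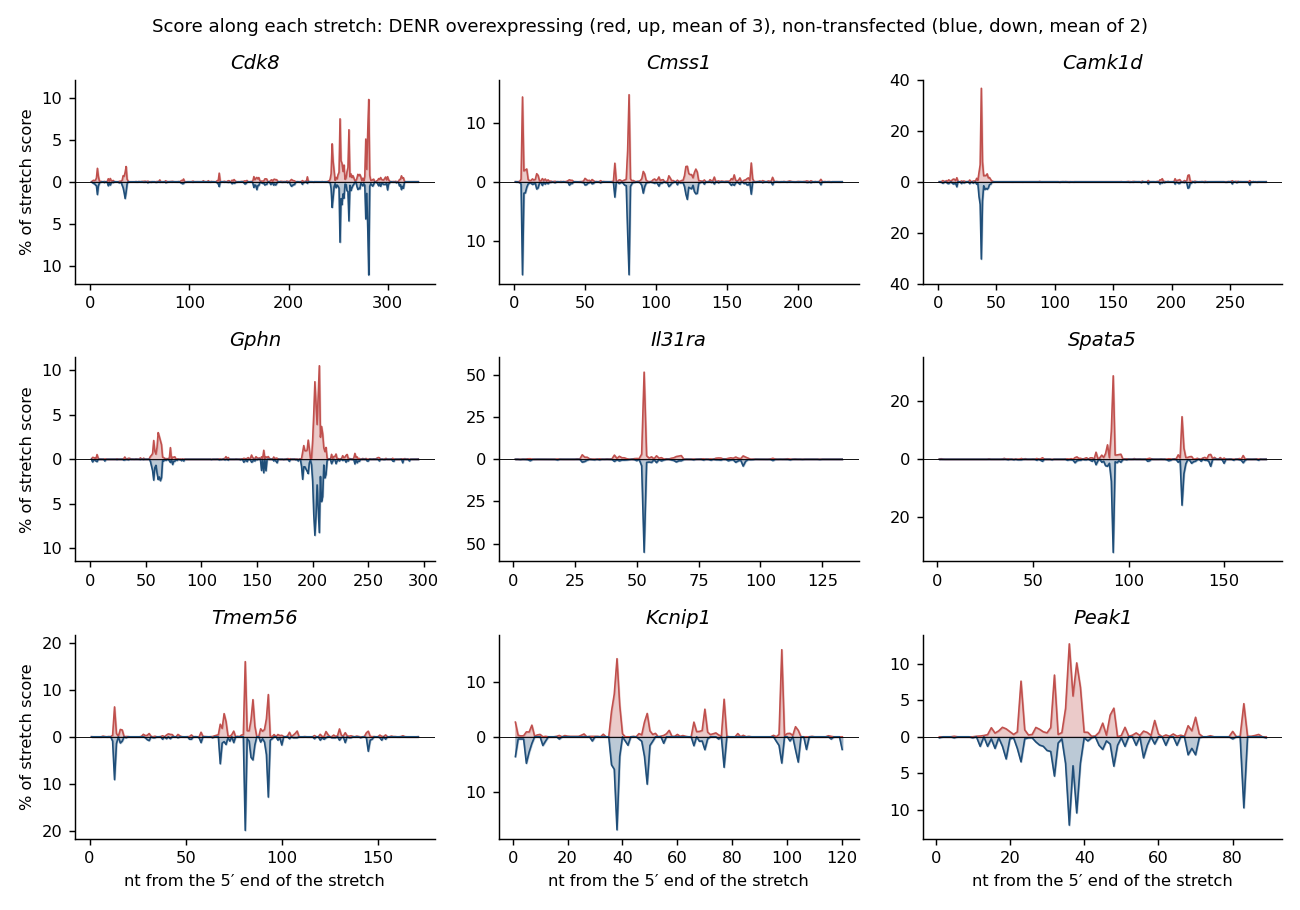
Percentage of the score of each library at each nucleotide of the 9 stretches, counted from the 5′ end of the stretch, with the mean of the 3 DENR overexpressing libraries upward and that of the 2 non-transfected libraries downward. Tall peaks recur at the same nucleotide in both groups in some genes, such as nt 53 of Il31ra, nt 37 of Camk1d and nt 6 and nt 81 of Cmss1. The tallest position of the group mean differs in others. In Kcnip1 it is nt 98 in overexpressing and nt 38 in non-transfected libraries, and in Gphn nt 206 and nt 202. Single libraries of a group also differ. In Gphn, nt 202 is above nt 206 in replicate 2 of each group. In Kcnip1, nt 38 is above nt 98 in DENR overexpressing replicate 2.

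The sequence copies printed above carried sites on the same strand as well. Within 150 nt of Gm24270 lay 231 Peak1 sites, of which 215 were downstream, 16 upstream and 0 inside the 57 nt. Around Gm24187 (chr13:9834469-9834525, minus strand), whose transcript differs by G11A, lay 235 DENR sites, 226 of them downstream and 9 inside. Downstream, 72 offsets from the gene start were listed near Gm24270 and 90 near Gm24187, and 63 of these were listed near both. Listed offsets were dense near both genes, so many can coincide through density alone, and nothing is read from the 63. At nt 95 the summed DENR score was 83 near Gm24270 and 46 near Gm24187. At nt 154 it was 1 and 976, so the tallest position near Gm24187 was nearly empty in Peak1. The adjacent nt 155 had 57 near Gm24270 and 59 near Gm24187. These offsets were picked after their values were seen, and whether the flanks of the copies are alike in sequence was not tested.

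Site numbers around the remaining copies ranged from 0 to 169. Gm23388 (chr8:85112012-85112068, minus strand, in Zfp791) had 169 DENR sites, Gm25911 (chr1:167340369-167340424, minus strand) had 132, Gm24245 (chr4:139338304-139338360, plus strand) had 54 and Gm23935 (chr16:11144125-11144181, plus strand) had 0. At base 31, the last base printed, Gm23388 had scores of 11, 78, 109, 33 and 16 in the DENR libraries. Gm25911 had 64 and 80 there in DENR overexpressing replicates 2 and 3 and was not listed in the remaining libraries, and Gm24245 had 9 in replicate 3 only. Gm24245 and Gm23935 have the same printed bases as Gm24270. Inside the 57 nt, Gm24270 and Gm23935 had 0 DENR sites and Gm24245 had 8, all in DENR overexpressing replicate 3. The remaining sites around these genes lay in the flanks, whose sequence was not analysed here. IgG replicate 2 had 2 sites near Gm24187 and the IgG lists had none near the other copies. No site was listed on the opposite strand around any of the 6.

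**Figure D5:**
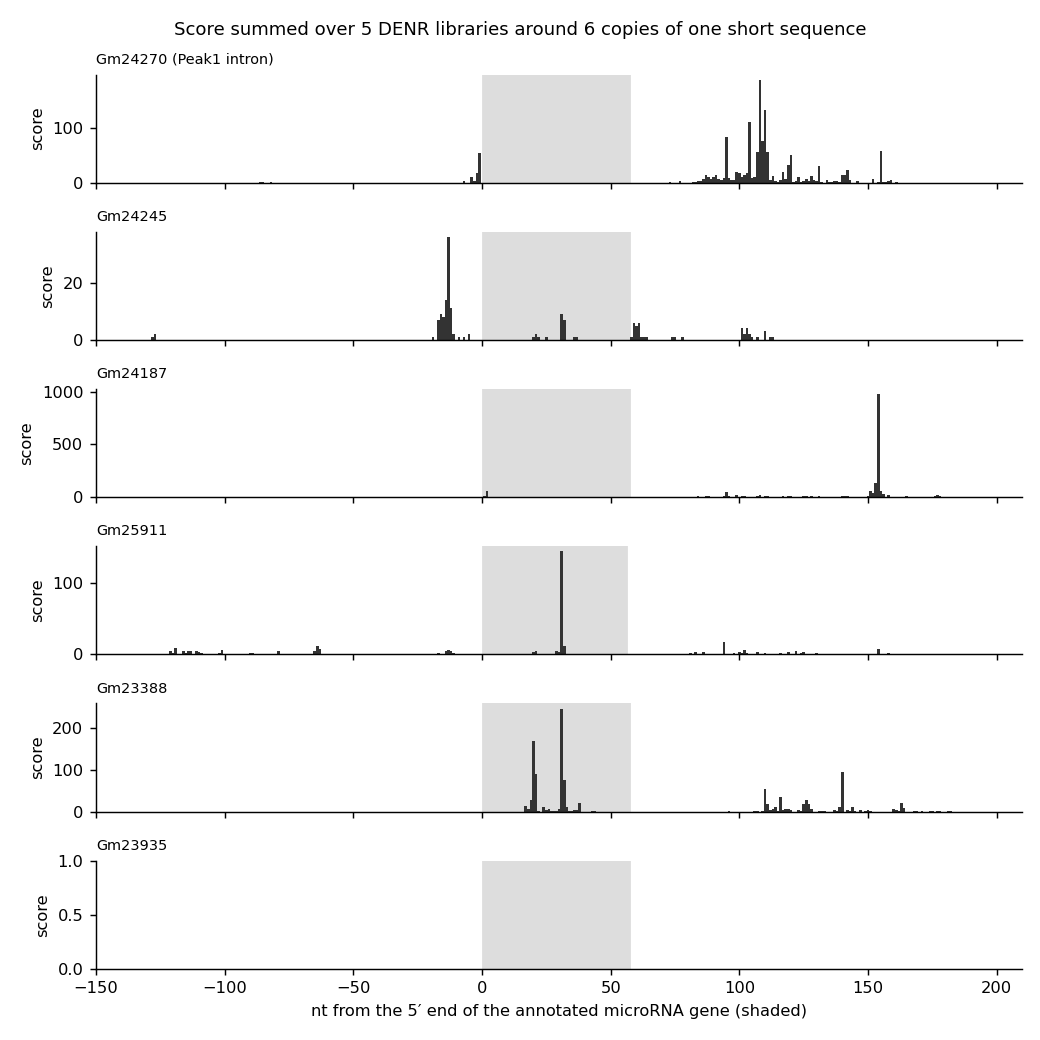
Summed score of the 5 DENR libraries at each nucleotide around the Gm24270 gene in Peak1 and its copies, counted from the start of each microRNA gene. Peak1 sites lie downstream of the 57 nt of Gm24270, and the highest column near Gm24187 is at nt 154.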

How the data were processed

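The deposited lists hold iCLIP crosslink sites of 7 libraries, grouped by sample titles. The authors removed barcodes, aligned reads to mouse build mm10 with Bowtie 0.12.7 (up to 2 mismatches), collapsed reads by molecular identifier and called sites per library with the iCount peaks function (100 permutations, flank 15 nt, FDR 0.05). The labels list Bowtie2, and track lines of 6 lists say that regions were treated separately where the methods name an option treating them as one. The deposited score of a site is a whole number, negative for the minus strand. Depth is unknown, because sites under the threshold are left out of the lists, and low positions may be missing from the shorter lists. How reads that match several places in the genome were assigned was not tested here, and it could change these sites.

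Sites inside each gene on its strand were taken with GENCODE M21. DENR sites at most 50 nt apart were joined, and the stretch with most sites was used. Introns were numbered in the principal protein-coding transcript with the longest coding sequence. Group shares were compared by two-sided exact permutation tests with the smaller tail doubled. The tests were tried on simulated lists. Alternatives covered a minimum score of 10, merging within 15 nt, list length, weighting, rRNA and mitochondrial sites, strand, left-out libraries, the replicate block, a position tolerance of 5 nt and other gaps. The members and lists were chosen with earlier results of these data known. Named were all 9 genes, their position with the lowest mean rank, overlapping genes, sequence relatives and the up to 5 other protein-coding genes with most positions in all 5 lists, of which 1 is not reported here. The second positions of genes, Cd44 and the offsets near the copies were chosen after their values were seen. The genome sequence of the stretches was not analysed here. Software was blastn 2.17.0 and Python 3.11.15 with scipy 1.17.1, pandas 2.3.3, numpy 2.4.6 and matplotlib 3.10.9.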

Additional observations from a re-analysis of the deposited data

How the results depend on the processing

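The overexpressing minus non-transfected difference in share of sites (-1.56 percentage points) changed sign when lists were cut to the shortest DENR list (1.14) or weighted by score (0.200), and ranged from -4.33 to 0.484 with each library left out, positive only without DENR overexpressing replicate 2. The difference in share of score (0.200) changed sign at a minimum score of 10 (-3.09) and ranged from -1.51 to 1.75 with libraries left out, being -1.51 without DENR overexpressing replicate 1 and -1.35 without non-transfected replicate 2. With the replicate block these differences were -0.838 and 0.783. Same-numbered libraries did not deviate together (correlations of -0.178 and 0.0849), so the numbers were not taken as pairs, and no call changed because none could be made.

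The DENR minus IgG difference in share of sites (-17.5) was -17.0 with the replicate block, -4.32 at a minimum score of 10, -7.33 weighted by score, -23.8 without rRNA and mitochondrial sites, and 1.79 against IgG replicate 2 with the DENR lists cut to its length (chosen after seeing the data). It ranged from -24.4 without IgG replicate 2 to -10.6 without IgG replicate 1. Merging sites within 15 nt gave -19.6, from mean shares of 2.12% in the DENR and 21.7% in the IgG libraries.

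The 397 positions in all 5 DENR lists became 1199 within 5 nt and 65 at a minimum score of 10, of which 21 were in Cdk8, 23 in Cmss1 and 0 in Kcnip1 and Peak1. With a library left out, only the remaining DENR lists had to hold a position, so the number could not fall below 397. It ranged from 400 to 544, and Gphn and Peak1 rose from 36 and 16 to 59 and 30 without non-transfected replicate 1. The stretch span moved to 131 nt in Camk1d and 189 nt in Gphn with gaps of at most 15 nt, and to 402, 379 and 357 nt in Spata5, Kcnip1 and Peak1 with gaps of at most 200 nt. The cause of these changes was not tested beyond the fewer or joined sites that each setting leaves. Comparison of the stretches with the genome was not run.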
